A study of Homo sapiens with 18 samples.

Results

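The early response of gemcitabine-resistant pancreatic cancer cells to the quadruplex ligand CM03 was described over all 12939 genes with a value in the 6 h comparison of GemMIA-R3 cells, of 16421 genes with a value in any of the 3 comparisons used. GemMIA-R3 cells given 400 nM CM03 for 6 h were set against GemMIA-R3 cells given the vehicle, PBS, for 6 h, with 3 libraries in each group. Further comparisons serve as references: GemMIA-R3 cells with CM03 against vehicle at 24 h, again with 3 libraries each, and parental MIA PaCa-2 cells with CM03 against control at 6 h, for which CM03-treated libraries of previous work supplied the values in the table. GemMIA-R3 is a line of the established human pancreatic ductal adenocarcinoma line MIA PaCa-2 that was selected in stepwise rising gemcitabine, a nucleoside drug, and was kept without gemcitabine for a week before the experiment. It is therefore 1 selected line, and what holds for it need not hold for other resistant lines. Fewer cells were plated for the 24 h than for the 6 h treatment. The sources used here do not say if the 3 libraries of each group were grown as separate cultures, so the error terms and p-values measure the spread between these libraries, which may be technical.

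CM03 is a naphthalene diimide with several side chains that binds and stabilises G-quadruplexes. These are stacked structures that guanine-rich DNA or RNA can fold into, and they are frequent near gene starts. A ligand bound to them can hinder RNA polymerase, and short treatments are used to catch genes that respond before secondary changes build up. Pancreatic ductal cancer cells depend on growth factor, WNT and nutrient signals.

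Each gene has a log2 fold change of CM03-treated over control cells and a false discovery rate (FDR, a p-value adjusted over the genes of a table), both made by the authors. A gene is called Down here with a log2 fold change under -0.5 and an FDR under 0.1, and Up with one over 0.5 and an FDR under 0.1. Values per library were not used here, the depth of the libraries is unknown, and the error given with a fold change is a standard error (SE) recovered from the fold change and its FDR. The median SE over all genes was 0.140, and 63.3% of genes had one under 0.2. Of the markers written to check the labelled cell type, the epithelial genes KRT7, KRT8, KRT18, KRT19, MUC1 and SOX9 and the mesenchymal genes VIM and FN1 have a value, while EPCAM, CDH1 and CDH2 have none in the table. Of 3 fibroblast markers none has a value, while the leukocyte genes PTPRC, CD68 and ITGAM, the endothelial gene PECAM1 and the acinar gene CPA1 have one. A value shows that reads were counted and not how many, so the labelled cell type could be checked only this far, and the part of other cells in the results was not tested.

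At 6 h CM03 lowered more genes than it raised, and the genes that fell were measured more precisely than those that rose. Of 12939 genes, 939 were Down (7.26%) and 647 were Up (5.0%), and the median over all genes was 0.005. A further limit of 1 or more in size with an FDR under 0.05 left 248 Down and 212 Up genes. The median SE of these was 0.230 for the Down genes and 0.483 for the Up genes, and 2 of the Down and 37 of the Up genes (17.5%) had an SE over 1. The reach of the changes also differed: 2 Down genes lay at -3 or below and 51 Up genes at 3 or above. Protein-coding genes made up 92.1% of the Down and 77.6% of the Up genes. The limit on the fold change runs through a dense part of the table, since 114 genes with an FDR under 0.1 lay just past it on the Down side, between -0.5 and -0.55, and 165 lay just short of it, between -0.45 and -0.5.

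**Figure D1:**
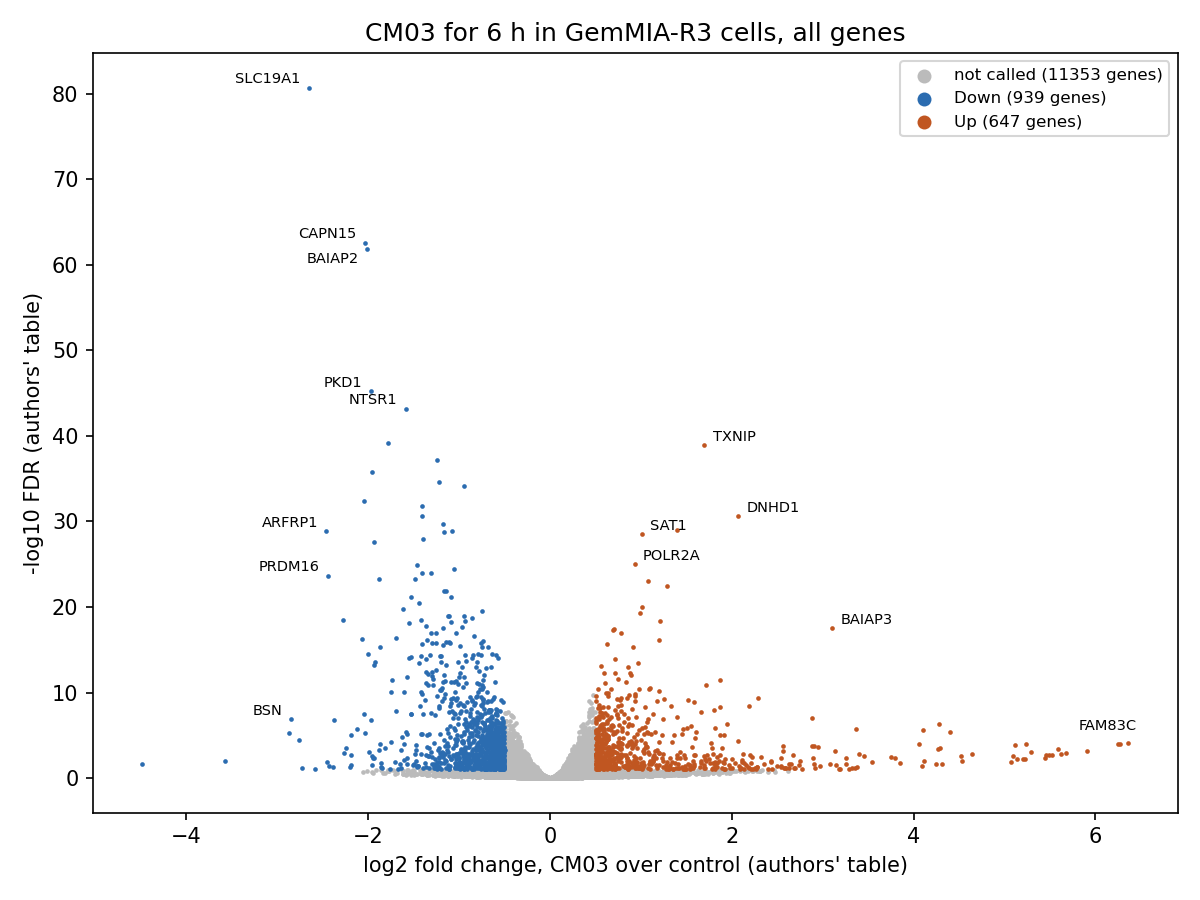
Log2 fold change of CM03-treated over control GemMIA-R3 cells at 6 h (horizontal axis) against the -log10 FDR (vertical axis) for each of 12939 genes, both from the authors' table, with 939 Down genes in blue, 647 Up genes in orange and the others in grey. The smallest FDR belongs to SLC19A1, and the farthest points on the right have a modest FDR.

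The gene with the firmest change was SLC19A1, the carrier that takes reduced folates into cells, at -2.65 (SE 0.135, FDR = 1.92e-81). CAPN15, a protease of the calpain family, stood at -2.03 (SE 0.118, FDR = 2.53e-63), and BAIAP2, a scaffold that organises actin at the cell edge, at -2.01 (SE 0.117, FDR = 1.31e-62). Their SE is recovered from the FDR by which they were picked, so it is no separate measure of how firm they are. PKD1, the membrane protein polycystin-1, stood at -1.97, and its reads may be split with near-identical pseudogene copies. Among the other Down genes of smallest FDR, NTSR1, the neurotensin receptor, stood at -1.59, NACC2, a transcriptional repressor, at -1.79, and B3GALT6, which builds the linker of proteoglycan chains, at -2.04. DVL1, an adaptor that relays WNT signals, stood at -1.25, H2AFX, the histone variant that is phosphorylated at DNA breaks, at -1.22, and PLEC, the cytoskeletal linker plectin, at -0.94. The SE of the 10 genes ran between 0.0733 and 0.163, and its small size beside the changes follows from picking genes by FDR.

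On the Up side the smallest FDR belonged to TXNIP, which binds thioredoxin and restrains glucose uptake, at 1.70 (SE 0.123, FDR = 1.09e-39). DNHD1, a dynein heavy chain domain protein, stood at 2.07 (SE 0.169) and SAT1, which acetylates polyamines for breakdown and export, at 1.01 (SE 0.0859). POLR2A, the catalytic subunit of RNA polymerase II, stood at 0.93 (SE 0.0840, FDR = 8.73e-26). NXF1, the export receptor of mRNA, stood at 1.01, AKAP8L, a nuclear anchoring protein, at 0.99 and GPATCH2L, a G-patch domain protein, at 1.08. MYPN, a sarcomere protein of muscle, stood at 1.21, BAIAP3, a C2 domain protein of regulated secretion, at 3.10 and MAP1LC3B, the autophagosome protein LC3B, at 0.70. With changes between 0.70 and 3.10 they were smaller, for the most part, than those of the firmest Down genes.

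Ranked by size among protein-coding genes with an FDR under 0.05, the low end held well and poorly measured genes side by side. AMY2A, pancreatic amylase, was lowest at -3.58 with an SE of 1.13, and its reads cannot be told from those of near-identical amylase genes. BSN, a scaffold of nerve terminals, stood at -2.85, RTN4R, the receptor of a myelin inhibitor of axon growth, at -2.77 and ARFRP1, a GTPase of the Golgi, at -2.46. PRDM16, a transcription regulator of brown fat and stem cells, stood at -2.45, ZFPM1, the cofactor of GATA factors, at -2.38, FAM20C, a Golgi kinase of secreted proteins, at -2.27 and LPCAT1, which remodels membrane phospholipids, at -2.26. SCART1, a scavenger receptor family gene, MCF2L, a guanine nucleotide exchange factor, and TMEM121, a membrane protein, lay at -2.46, -2.43 and -2.19 with SEs of 0.795, 0.933 and 0.601. Of the 12 lowest genes, SLC19A1, ARFRP1, PRDM16 and FAM20C had SEs under 0.25.

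The 12 highest genes under the same limits are known mostly from other tissues and lay between 5.23 and 6.36, with SEs of 1.35 to 1.57. FAM83C, of a family that anchors casein kinases, stood at 6.36, CLDN6, a tight junction protein of embryonic epithelia, at 6.27 and SLC6A13, a GABA transporter, at 6.24. TRIM72, a membrane repair protein of muscle, stood at 5.91, KIF5A, a kinesin of neurons, at 5.67, CABP4, a calcium-binding protein of photoreceptors, at 5.62 and EPPK1, an epithelial linker protein, at 5.59. ALPP, the placental alkaline phosphatase, PTGER3, a prostaglandin E receptor, NLRC4, an inflammasome sensor, SLC8A2, a sodium-calcium exchanger, and SPON2, a matrix protein, completed the set at 5.49, 5.45, 5.45, 5.29 and 5.23. Each passed the FDR limit, but with an SE this wide their order among themselves cannot be told, and ALPP may share reads with near-identical phosphatase genes. Without counts it could not be seen how low these genes were in control cells.

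**Figure D2:**
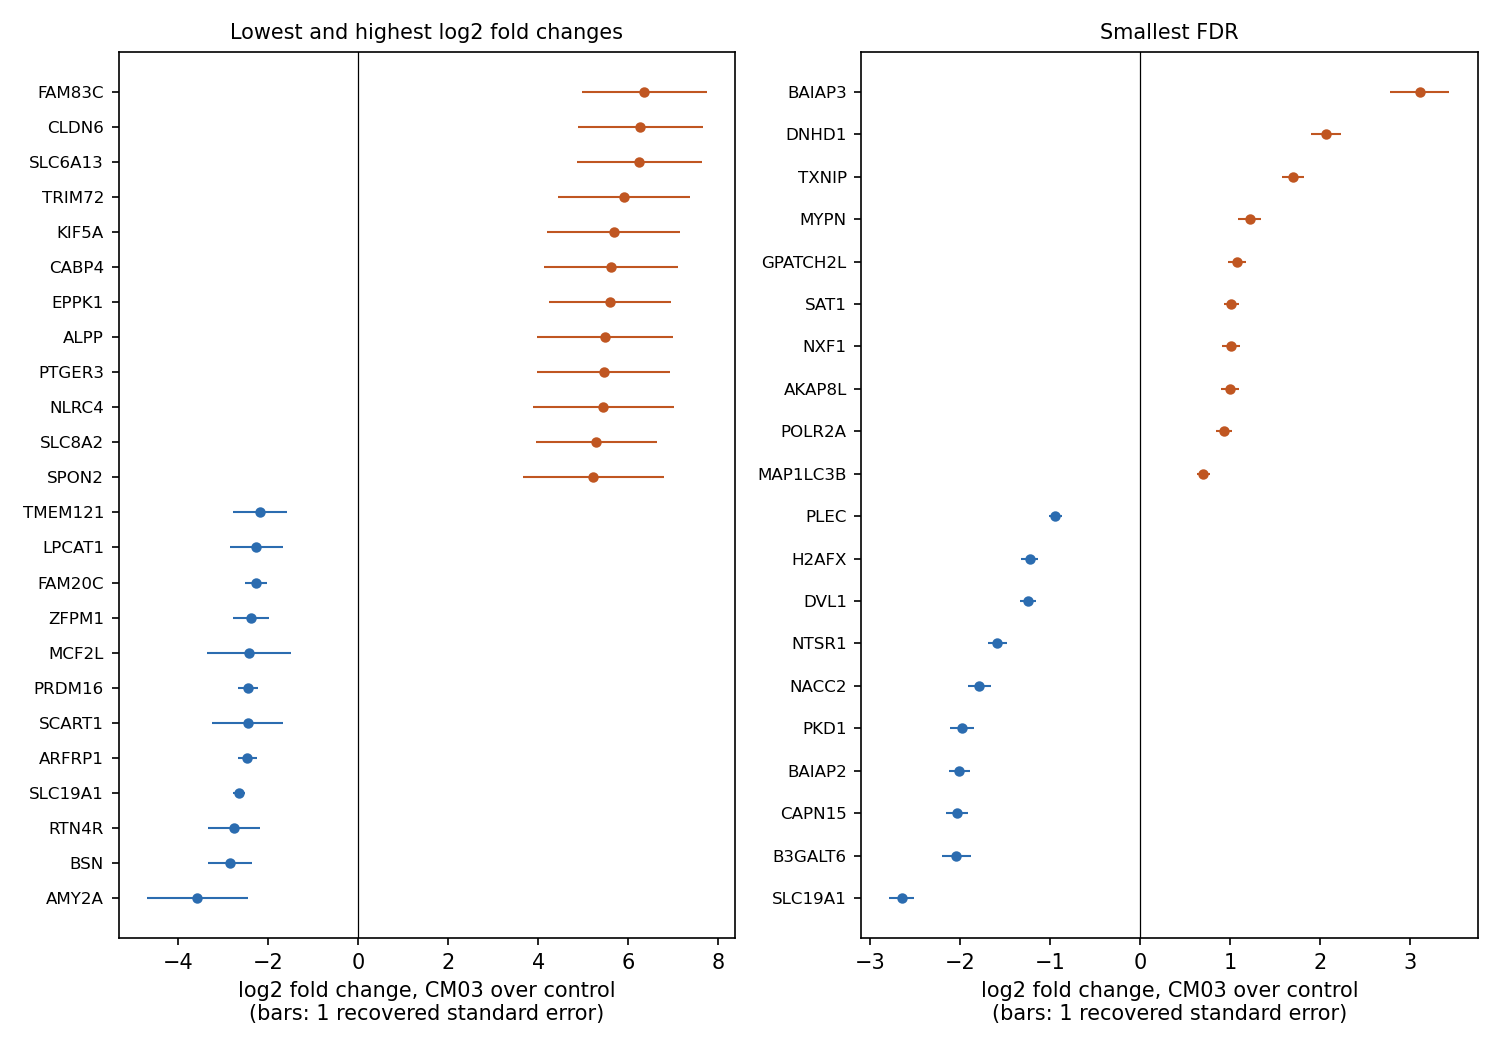
Log2 fold changes of CM03-treated over control GemMIA-R3 cells at 6 h with bars of 1 recovered SE, for the 12 highest and 12 lowest protein-coding genes with an FDR under 0.05 (left) and the 10 Up and 10 Down genes of smallest FDR (right). Bars are wide for the highest genes, with SEs of 1.35 to 1.57, and short for the genes of smallest FDR, with SEs of 0.0733 to 0.333.

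For 4 of the firmest genes the 250 bases before a RefSeq gene start (build GRCh38.p14) are shown, to let the guanine-rich stretches be seen beside the values. Capitals mark a quadruplex motif: 4 runs of at least 3 G, GGG, separated by 1 to 7 bases, read on both strands, where overlapping matches are joined. Where a gene has several listed starts, the window with the most motif bases is shown, which was chosen for the motif and not for the response. The windows lie at chr21:45541847-45542096, minus strand (SLC19A1), chr16:527462-527711, plus strand (CAPN15), chr17:81034901-81035150, plus strand (BAIAP2) and chr1:145996580-145996829, minus strand (TXNIP), each written 5′ to 3′ on the strand of its gene.
SLC19A1: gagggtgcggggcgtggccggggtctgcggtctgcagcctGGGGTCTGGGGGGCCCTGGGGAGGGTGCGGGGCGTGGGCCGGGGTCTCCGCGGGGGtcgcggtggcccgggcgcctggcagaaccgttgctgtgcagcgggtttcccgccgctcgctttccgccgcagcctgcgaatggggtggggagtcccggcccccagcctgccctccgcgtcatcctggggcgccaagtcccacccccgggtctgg
CAPN15: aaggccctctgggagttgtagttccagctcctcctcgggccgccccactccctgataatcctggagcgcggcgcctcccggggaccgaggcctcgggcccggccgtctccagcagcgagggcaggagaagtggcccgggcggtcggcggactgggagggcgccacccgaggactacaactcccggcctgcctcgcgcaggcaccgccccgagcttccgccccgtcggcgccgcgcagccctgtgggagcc
BAIAP2: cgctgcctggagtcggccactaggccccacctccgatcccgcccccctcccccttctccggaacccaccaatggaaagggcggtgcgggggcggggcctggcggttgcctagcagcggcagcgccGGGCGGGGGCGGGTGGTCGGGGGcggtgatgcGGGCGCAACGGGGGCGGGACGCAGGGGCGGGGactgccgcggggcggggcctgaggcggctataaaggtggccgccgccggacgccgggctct
TXNIP: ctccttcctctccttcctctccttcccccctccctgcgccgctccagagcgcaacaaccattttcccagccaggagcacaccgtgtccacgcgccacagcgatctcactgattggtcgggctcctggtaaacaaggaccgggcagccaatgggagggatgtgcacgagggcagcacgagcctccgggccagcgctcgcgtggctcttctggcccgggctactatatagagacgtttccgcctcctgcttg
SLC19A1, the folate carrier at -2.65, has 56 motif bases in the window of 1 of its 4 listed starts, and BAIAP2, the actin scaffold at -2.01, has 55. No match lies in the CAPN15 window, although its change was -2.03 and its GC content is 74.8%. The TXNIP window, from the gene with the firmest rise, also holds no match, with a GC content of 63.6%. Of 35116 such windows in RefSeq, 23.5% hold the motif. Of the genes with a listed start, 52.6% of 738 Down genes, 28.2% of 472 Up genes and 38.7% of 8768 genes without a call had it in at least 1 window. For genes with a single listed start the shares were 45.7%, 23.7% and 31.9%. A match is a run of letters and not a shown quadruplex, and no match says only that these letters are not in the window.

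The Down share was higher among genes rich in putative quadruplexes and among genes rich in G and C, and the Up share was lower among genes with many quadruplexes. By the authors' number of putative quadruplexes in promoter, exons and introns of a gene, known for 10941 genes, Down genes made up 4.64% of the quartile with the fewest (0 to 2), 5.20% and 6.86% of the middle quartiles and 15.2% of the quartile with the most (12 to 418). Up genes made up 5.07%, 5.33%, 4.29% and 2.49% of the same quartiles. By the GC content of the whole gene, the Down share was 2.46%, 4.35%, 7.70% and 14.8% from the lowest to the highest quartile, and the Up share lay between 4.22% and 5.08%. Gene length separated the calls little, with Down shares of 7.44%, 6.74%, 7.32% and 7.76%. Within the quartile of highest GC content, the Down share ran 10.0%, 10.1%, 12.4% and 23.0% over quartiles of quadruplex number. Within the quartile of lowest GC content it was 2.95%, 2.08%, 1.91% and 2.66%. Cut the other way, within the quartile with the most quadruplexes it ran 2.66%, 6.09%, 16.8% and 23.0% over quartiles of GC content. In the quartile with the fewest it ran 2.95%, 3.95%, 4.24% and 10.0%. The Down share thus differed with each property at some levels of the other, and their separate parts were not tested. The median SE was 0.145 in the quartile with most quadruplexes and 0.121 in that with fewest. A quadruplex number exists for 90.4% of the Down and 73.4% of the Up genes, since the number stands in the parental table.

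**Figure D3:**
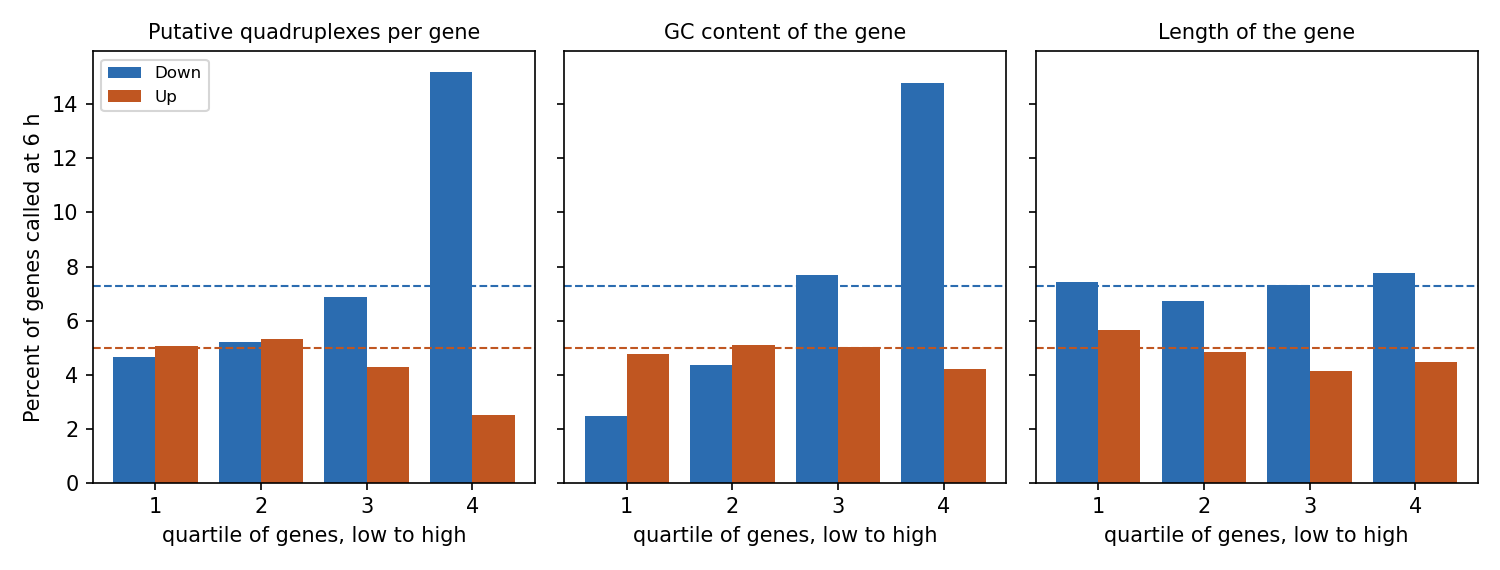
Percent of genes Down (blue) and Up (orange) at 6 h in quartiles of genes by putative quadruplexes per gene, GC content and gene length, low to high. Dashed lines give the shares over all 12939 genes, 7.26% Down and 5.0% Up. The Down share reaches 15.2% and 14.8% in the highest quartiles of the first and second property. The first panel holds only the 10941 genes with a quadruplex number, which 90.4% of the Down and 73.4% of the Up genes have.

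The calls were spread unevenly over the chromosomes. Chromosomes 16, 22 and 21 had the highest Down shares among those with 100 or more genes, 14.3%, 13.9% and 12.7%, and Up shares of 3.92%, 1.58% and 1.59%. The lowest Down shares were 2.85% on chromosome X and 3.53% on chromosome 6. Chromosome 19, whose genes had the highest median GC content, 53.9%, stood at 7.17% Down and 5.73% Up, close to the shares over all genes. Median GC content was 51.8% on chromosome 16 and 52.2% on chromosome 22, but 45.3% on chromosome 21.

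Among the pathway lists, which are 71 with a measured gene, signalling genes leaned Down at 6 h. Counted once each, 46 of 359 signalling genes were Down (12.8%) and 8 were Up (2.23%), beside 7.26% and 5.0% of all genes, with a median of -0.07. Genes of RNA metabolism and translation had 12 Down and 2 Up of 281, and genes of protein turnover 4 and 5 of 132. Matrix, adhesion and cytoskeleton genes leaned the other way, with 8 Down and 17 Up of 201. The lists were not tested as sets, and the counts describe them.

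Stress-activated kinases had the highest Down share of the lists with 20 or more measured genes. Of 23 p38 and JNK pathway genes, 6 were Down and none was Up, with a median of -0.16. They were MAP2K7, the kinase that activates JNK, at -1.03 (SE 0.137), MAPK8IP3, a JNK scaffold, at -0.91, MAP3K12, an upstream kinase of neurons, at -0.84, MAPK12 and MAPK11, which are p38 gamma and beta, at -0.68 and -0.67, and MAP3K10 at -0.51. In contrast, of 26 genes of the RAS-RAF-ERK growth factor cascade none was called, with values between -0.58 and 0.40 and a median SE of 0.102. None of 7 phosphatases that switch MAP kinases off was called either.

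Of 31 WNT pathway genes, 6 were Down and none was Up. Besides DVL1 these were APC2 at -1.70 (SE 0.269) and AXIN1 at -1.35 (SE 0.151), members of the complex that destroys beta-catenin, NKD1, a feedback inhibitor, at -0.85, the ligand WNT5B at -1.27 and the co-receptor LRP5 at -0.78. Notch genes, which carry signals between touching cells, had 4 Down of 22. The ligands JAG2 and JAG1 stood at -1.17 (SE 0.0990) and -0.78, the receptor NOTCH1 at -0.86 and the target HES4 at -0.58. Of 10 Hedgehog genes, the cilium kinesin KIF7 and the co-receptor CDON were Down at -1.34 and -1.09. The Down genes thus included ligands, receptors and inhibitors of the same pathways.

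Inflammatory signalling had 6 Down and 1 Up of 32 genes. The adaptors TRAF2 and TRAF3, which join TNF receptors to kinases, stood at -1.37 (SE 0.183) and -1.21 (SE 0.144), the receptor TNFRSF1B at -1.09, the chemokine CXCL1 at -1.49 (SE 0.527) and the ubiquitin ligase BIRC3 at -0.81.

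Growth and nutrient signalling went both ways, with 6 Down and 3 Up of 34 genes. RPTOR, the scaffold of mTOR complex 1, stood at -1.41 (SE 0.115, FDR = 2.27e-31), the insulin receptor INSR at -0.79, TSC2, which restrains mTOR, at -0.56 and MLST8, another mTOR subunit, at -0.53. The insulin receptor substrate IRS2 stood at 0.93 (SE 0.134), the transcription factor FOXO3 at 0.84 and TSC1, the partner of TSC2, at 0.61. In the TGF-beta and BMP list 3 of 33 were Down, among them ID3, a target of BMP signals, at -0.99 and SKI, a SMAD co-repressor, at -0.94. PLXNA1, a semaphorin receptor, at -1.40 (SE 0.120) and SEMA4D, a semaphorin, at -1.01 led the 4 Down genes of 35 in axon guidance, where SEMA3D was Up at 0.94. None of the 26 Hippo genes was called.

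**Figure D4:**
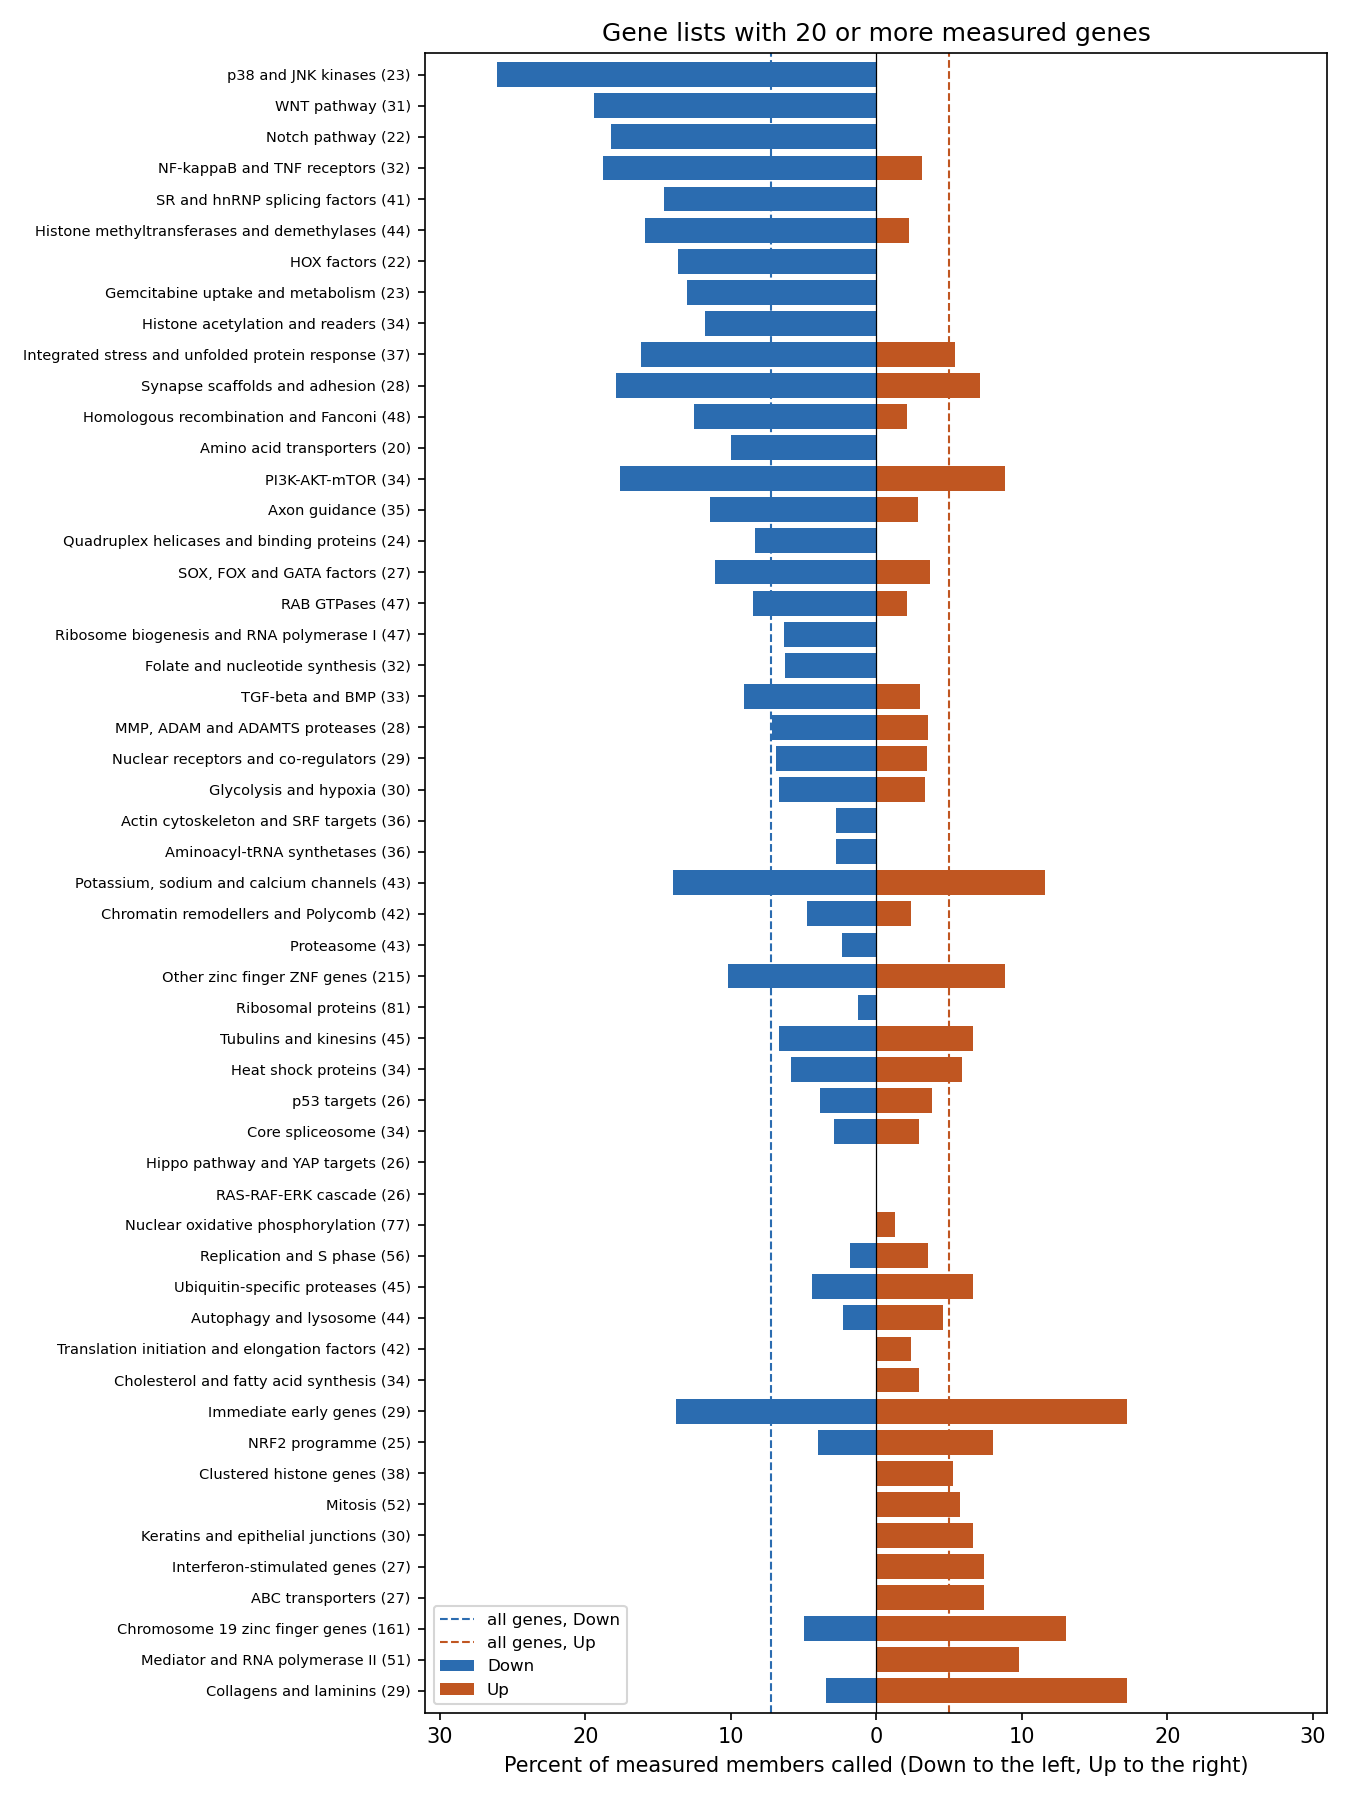
Percent of measured members Down (blue, to the left) and Up (orange, to the right) at 6 h for the gene lists shown, each with 20 or more measured genes, ordered by the difference of both shares, with the number measured in brackets and dashed lines at the shares over all genes. The p38 and JNK list is farthest to the left with 6 of 23 Down, and the RAS-RAF-ERK list has no bar.

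The lists of the transcription machinery and of the factors it serves differed in their calls, and the difference was not tested. Of 51 Mediator and RNA polymerase II genes, none was Down and 5 were Up (9.8%), with a median of 0.13. Over all genes 7.26% were Down and 5.0% Up. Besides POLR2A these were MED13 of the kinase module at 0.61 (SE 0.0818), MED20 at 0.59, CCNT1, the cyclin of the elongation kinase P-TEFb, at 0.57, and HEXIM1, which holds that kinase inactive, at 0.54. Immediate early genes, which respond without new protein synthesis, were called on both sides, 4 Down and 5 Up of 29. NR4A1 stood at -1.18, KLF2 at -1.11, IER5L at -0.85 and JUND at -0.81, against EGR3 at 1.01, FOSB at 0.84, ATF3 at 0.77, MCL1 at 0.69 and JUN at 0.50. Among nuclear receptors, RXRA, the shared partner of many of them, stood at -1.62 (SE 0.164) and the fatty acid sensor PPARD at -0.56. HOX factors had 3 Down of 22 (HOXB13, HOXC8 and HOXB8, at -0.82, -0.81 and -0.54), and KLF9 was Up at 1.66.

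Zinc finger genes of the ZNF series leaned Up where they lie on chromosome 19. Of 161 on that chromosome, 8 were Down (4.97%) and 21 Up (13.0%), with a median of 0.15, while of 215 elsewhere 22 were Down (10.2%) and 19 Up (8.84%), with a median of 0.02. Many of these genes encode repressors of transposable elements, and near-identical neighbours may share reads. ZNF554 and ZNF114 on chromosome 19 stood at 1.13 and 1.05, and ZNF497 and ZNF527 at -1.15 and -1.12. Elsewhere ZNF425 stood at 1.16 (SE 0.220), and ZNF692 and ZNF341 at -1.25 (SE 0.137) and -1.34. ZNF469 had the lowest value of either list, -2.73, with an SE of 1.14 and an FDR of 0.0664.

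Over all 158 chromatin genes, 13 were Down (8.23%) and 4 Up (2.53%), and the lists differed. Of 44 histone methyltransferases and demethylases, 7 were Down and 1 Up. Besides PRDM16 the Down genes included the demethylases KDM4B at -1.29 (SE 0.168) and KDM8 at -1.23 and the methyltransferase DOT1L at -0.80 (SE 0.115), and the demethylase KDM3A was Up at 0.56. Of 34 genes of histone acetylation and its readers, BRD9 at -1.21 (SE 0.143), the deacetylase HDAC4 at -1.10, BRD3 at -0.80 and BRD1 at -0.59 were Down and none was Up. Of 42 chromatin remodellers and Polycomb genes 2 were Down (4.76%) and 1 was Up, the Polycomb subunits CBX7 at -1.10 and PHC2 at -0.58 and the remodeller CHD6 at 0.54. Of 38 clustered histone genes, whose transcripts normally lack a poly(A) tail, none was Down and HIST2H2BE and HIST1H1B were Up at 1.78 (SE 0.392) and 1.35 (SE 0.596). The list had a median of 0.50 with 29 of 38 values above 0, but its median SE was 0.694, and near-identical copies may share reads.

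Genes of RNA processing and translation had 12 Down and 2 Up of 281, and 6 of these calls lay in 1 list of splicing regulators. Of 41 SR and hnRNP proteins, 6 were Down and none was Up: SRSF6 at -0.81 (SE 0.0980), SRSF4 at -0.67 (SE 0.106), SRSF3 at -0.64 (SE 0.0760), SRSF5 at -0.62 (SE 0.0898), SRSF8 at -0.59 and HNRNPR at -0.54. SR proteins bind exons and steer splice site choice. The core spliceosome, in contrast, had 1 Down gene, SF3A2 at -0.73, and 1 Up gene, the helicase DHX8 at 0.52, of 34. Ribosomal protein genes were measured tightly, with a median SE of 0.0709, and 1 of 81 was called, RPL36A at -0.51, with a median of 0.09. Of 42 translation factors EIF2B2 alone was called, at 0.60, and of 36 aminoacyl-tRNA synthetases HARS2 alone, at -0.51. The nucleolar list had TAF1B, RRS1 and RRP1 Down, at -0.56, -0.54 and -0.52, of 47.

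Over all 197 genes of repair, telomeres, quadruplex binding, replication and mitosis, 10 were Down (5.08%) and 6 Up (3.05%). The shares over all genes of the comparison were 7.26% and 5.0%. The recombination and Fanconi list alone had 12.5% Down and 2.08% Up, and it was not tested as a set. Of 48 homologous recombination and Fanconi genes, 6 were Down and 1 Up: SLX4, a scaffold of nucleases, stood at -1.53 (SE 0.182), XRCC3, a recombination protein, at -1.11 (SE 0.125), EME2 at -0.99, NBN at -0.63, RAD51D at -0.57 and FANCM at 0.50, beside H2AFX. TERT, the catalytic subunit of telomerase, was the called gene among 18 of telomere maintenance, at -1.38 (SE 0.465). Of 24 genes listed as quadruplex helicases or binding proteins, the helicases BLM and RECQL4 were called, at -0.58 (SE 0.118) and -0.55 (SE 0.1). Of 56 replication genes the licensing factor CDT1 was Down at -0.50, and cyclin E1, CCNE1, and the phosphatase CDC25A were Up at 0.60 and 0.58. The mitosis list had ESPL1, KNTC1 and KIF18A Up, at 0.63, 0.61 and 0.54, of 52.

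Stress genes were called in both directions, in shares not far from those of all genes. Counted once each, 12 of 132 were Down (9.09%) and 8 Up (6.06%), beside 7.26% and 5.0% of all genes. Of 37 genes of the integrated stress and unfolded protein responses, 6 were Down and 2 Up. CHAC1, which degrades glutathione, stood at -1.23, DDIT4, an mTOR inhibitor, at -0.999, VLDLR, a lipoprotein receptor, at -0.86 and ATF4, the factor that drives this response, at -0.68, against ATF3 at 0.77 and the chaperone DNAJB9 at 0.60. Of 34 heat shock genes DNAJB1 and HSPA8 were Down at -0.90 (SE 0.209) and -0.62 (SE 0.0914), and DNAJB4 and DNAJB5 were Up at 0.94 and 0.84. Of 26 p53 targets, CDKN1A, the inhibitor of cyclin-dependent kinases, stood at 0.68 (SE 0.284) and PHLDA3 at -0.56. In the BCL2 family, BOK and BCL2 stood at -1.20 (SE 0.167) and -0.91 (SE 0.255), and MCL1, which protects cells from apoptosis, at 0.69 (SE 0.0744).

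Metabolic genes were called less often than all genes, with 9 Down (4.31%) and 3 Up (1.44%) of 209, beside 7.26% and 5.0% of all genes. Of 77 nuclear genes of oxidative phosphorylation none was Down and 1 was Up, NDUFC1 at 0.55, and 67 of the 77 values lay above 0 with a median of 0.14. Of 43 proteasome genes 1 was Down, the assembly factor PSMG3 at -0.59, and 38 of 43 values lay above 0. Of 23 genes that carry or process gemcitabine, the nucleoside transporter SLC29A2 at -1.02 (SE 0.155), the nucleotidase NT5C at -0.64 and the mitochondrial kinase TK2 at -0.55 were Down and none was Up. The lactate exporter SLC16A3 stood at -0.82 and ADM, adrenomedullin, at 1.82 (SE 0.664) in the glycolysis and hypoxia list of 30. IDI1, an enzyme of isoprenoid synthesis, was the called gene of 34 in cholesterol and fatty acid synthesis, at 0.69.

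Matrix, adhesion and cytoskeleton genes had 17 Up (8.46%) and 8 Down (3.98%) of 201. Channel, transporter, synapse and RAB genes had 10 Up (6.06%) and 17 Down (10.3%) of 165. Over all genes 5.0% were Up and 7.26% Down, so the Up share of the second group was near that of all genes. Tubulins and kinesins, with 6.67% called each way, were near the shares of all genes too. Collagens and laminins had 1 Down and 5 Up of 29: COL13A1 stood at -0.82, and LAMA2 at 1.20 (SE 0.134), COL24A1 at 1.04, LAMA3 at 0.70, COL7A1 at 0.60 and COL20A1 at 1.54 with an SE of 0.707. Integrins, the receptors of the matrix, had ITGA6 Down at -0.95 and 5 Up of 17, ITGB6 at 1.25 (SE 0.183), ITGA10 at 1.24, ITGB7 at 0.96, ITGA2B at 2.67 and ITGAM at 5.07 (SE 1.67). Ion channels were called on both sides, 6 Down and 5 Up of 43, with KCNC1 at -1.95 (SE 0.568) and KCND1 at 1.78 (SE 0.420), both subunits of voltage-gated potassium channels. RAB40C, a GTPase that serves ubiquitin ligases, stood at -1.87 (SE 0.215) and its relative RAB40B at -1.12 among 47 RAB genes. Tubulins and kinesins had 3 Down and 3 Up of 45, among them KIF26A at -1.69 (SE 0.188), KIF7 at -1.34, KIF17 at 3.85, KIF5A at 5.67 and KIF18A at 0.54. Of 6 measured leukocyte markers ITGAM was Up, and the median SE of these was 0.805. Of 6 acinar, islet and liver markers AMY2A and CELA3A, both with near-identical copies, were Down (33.3%), with a median of -1.43 and a median SE of 1.15 over the list. Of 4 stromal and 6 neuronal markers none was called.

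Symbol families gave a view that no pathway knowledge shaped. KLHL genes encode adaptors of ubiquitin ligases and TBC genes RAB GTPase activators. Of 64 symbol roots with 20 or more genes, these had the highest Down shares, 15.4% of 26 genes each, beside 7.26% of all genes. Each share rests on 4 genes, and KLHL also had 3 Up (11.5%), beside 5.0% of all genes. TMEM genes, a mixed set of membrane proteins, followed with 24 Down and 6 Up of 167 (14.4% Down). TRIM had 13.2% Down and 10.5% Up, and FAM 12.4% Down and 5.65% Up. The SLC carriers had 27 Down and 12 Up of 219 (12.3% Down). Members named here were chosen after their values were seen. KLHL21 stood at -1.02 (SE 0.124) and KLHL29 at -1.31, against KLHL24 at 1.09 and KLHL28 at 0.79. TBC1D8, TBC1D2B, TBC1D24 and TBC1D16 were Down between -0.52 and -0.74. LINC and LOC symbols, mostly long non-coding transcripts and unnamed loci, had the highest Up shares, 14.3% of 140 and 14.0% of 307.

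Non-coding transcripts accordingly leaned Up, with less precision. Of 653 long non-coding RNAs, 33 were Down (5.05%) and 73 Up (11.2%), with a median SE of 0.440 against 0.128 for protein-coding genes, of which 7.53% were Down and 4.37% Up. Antisense transcripts named for a partner gene had 14 Down and 41 Up of 342. The transcripts named from here to the microRNA loci were chosen after their values were seen. Firm examples were PAX8-AS1 at 1.28 (SE 0.122) and LUCAT1 at 1.87 (SE 0.288) on the Up side, with KCNQ1OT1, the imprinted antisense RNA of KCNQ1, at 0.97 (SE 0.118). NEAT1, the backbone RNA of nuclear paraspeckles, stood at -1.08 (SE 0.0914, FDR = 1.41e-29), while its neighbour MALAT1, an RNA of nuclear speckles, was at -0.01 (SE 0.113). The snoRNA hosts SNHG7 and SNHG4 stood at -1.44 (SE 0.143) and -1.16 (SE 0.165), and of 147 snoRNAs 14 were Down and 1 Up. RNA45S5, the precursor of ribosomal RNA that many identical gene copies make, stood at -2.24 (SE 0.528). Whether reads were counted by strand is not given in the sources used here, so antisense transcripts cannot be told from their partners, nor small RNAs from their hosts.

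Among 39 microRNA loci 1 was Down and 2 were Up. Their mature sequences from RefSeq are shown with the seed, bases 2 to 8, in capitals, because the seed sets which transcripts a microRNA can pair with. The mature RNAs lie at chr20:63942691-63942711 (hsa-miR-647), chr17:64501230-64501250 (hsa-miR-5047), chr17:64500775-64500797 (hsa-miR-3064-3p) and chr17:64500817-64500837 (hsa-miR-3064-5p), in build GRCh38.p14 and on the minus strand.
hsa-miR-647: gUGGCUGCacucacuuccuuc
hsa-miR-5047: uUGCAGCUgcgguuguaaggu
hsa-miR-3064-3p: uUGCCACAcugcaacaccuuaca
hsa-miR-3064-5p: uCUGGCUGuuguggugugcaa
No 2 of these seeds are the same. MIR647, inside UCKL1, stood at -4.49 with an SE of 1.55, while its host UCKL1, a uridine-cytidine kinase-like gene, was at -0.45. MIR3064 and MIR5047, both inside the RNA helicase gene DDX5, were Up at 1.00 (SE 0.211) and 0.77 (SE 0.172), while DDX5 was at 0.14 (SE 0.0783). The libraries were made for mRNA, so these values are of reads over the loci and not of mature microRNAs.

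By 24 h the response of GemMIA-R3 cells was wider, with 18.9% of 14237 genes Down and 20.3% Up. The difference between both times was tested for each gene from the recovered SEs (a two-sided normal test, p-values adjusted after Benjamini-Hochberg). Of 12489 genes tested, 1899 (15.2%) had a lower and 1183 (9.47%) a higher log2 fold change at 24 h than at 6 h. Of the 939 genes Down at 6 h, 719 were Down, 12 were Up and 208 had no call at 24 h. Of the 938 of them tested, 243 were lower and 71 higher at 24 h. Of 646 genes Up at 6 h with a 24 h value, 526 were Up, 1 was Down and 119 had no call, and 115 were higher and 18 lower at 24 h of 643 tested. The 6 h value enters both the call and the difference. With SEs from a t quantile with 4 degrees of freedom, 3215 genes were lower and 2775 higher at 24 h. In that setting each SE was smaller while the test stayed normal, so more genes pass by construction.

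Ranked by adjusted p and not by size, 12 genes led the differences between the times, 6 in each direction. At 6 h SLC7A5 was Down and PRND Up, and the others had no call. Most genes had none, since of the genes in both comparisons 11345 had no call at 6 h, 939 were Down and 646 Up. BOP1, a ribosome biogenesis factor, was at -2.60 at 24 h and -0.41 at 6 h, and SLC7A5, the carrier of large neutral amino acids, at -2.35 at 24 h and -0.55 at 6 h. RBM14, a paraspeckle protein, EPRS, the glutamyl-prolyl-tRNA synthetase, and ACTG1, cytoplasmic actin, stood at -1.64, -1.68 and -1.57 at 24 h and at 0.05, -0.05 and -0.23 at 6 h. KRT18, an epithelial keratin, was at -2.23 at 24 h and -0.39 at 6 h. In the other direction GLDC, the glycine-cleaving enzyme, was at 2.64 at 24 h and 0.29 at 6 h, and LTBP2, a matrix protein, at 2.51 at 24 h and 0.45 at 6 h. The deacetylase HDAC9, the receptor kinase AXL, the focal adhesion protein LPXN and PRND, a prion-like protein, also stood higher at 24 h, at 1.90, 1.53, 1.93 and 4.47, against 0.15, 0.29, 0.32 and 1.05 at 6 h. All 12 genes were picked by the adjusted p of this normal test, which was 2.31e-23 or less, so their passing it is no separate support.

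Lists differed in how many members passed the test of the difference between the times. The clustered histones had 36 Up of 38 at 24 h, with a median of 2.81, against 2 Up and a median of 0.50 at 6 h, and 21 of the 38 were higher at 24 h when the difference itself was tested, with none lower. The SR and hnRNP list had 22 Down of 41 at 24 h with a median of -0.56, against 6 Down and -0.05 at 6 h, and 19 of 38 tested were lower at 24 h. Among the members called at 6 h, SRSF5, singled out after its value was seen, stood at 0.31 at 24 h and -0.62 at 6 h. The integrated stress list had 19 Down of 37 at 24 h with a median of -0.63, against 0.01 at 6 h, and the aminoacyl-tRNA synthetases 10 Down of 36, with 14 of 34 tested lower at 24 h. Mediator and RNA polymerase II genes had 12 Up of 51 at 24 h, with 8 of 47 higher and none lower. Over all genes 18.9% were Down and 20.3% Up at 24 h, and 15.2% were lower and 9.47% higher at 24 h than at 6 h, so the share of Mediator and RNA polymerase II genes Up at 24 h was near that of all genes.

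**Figure D5:**
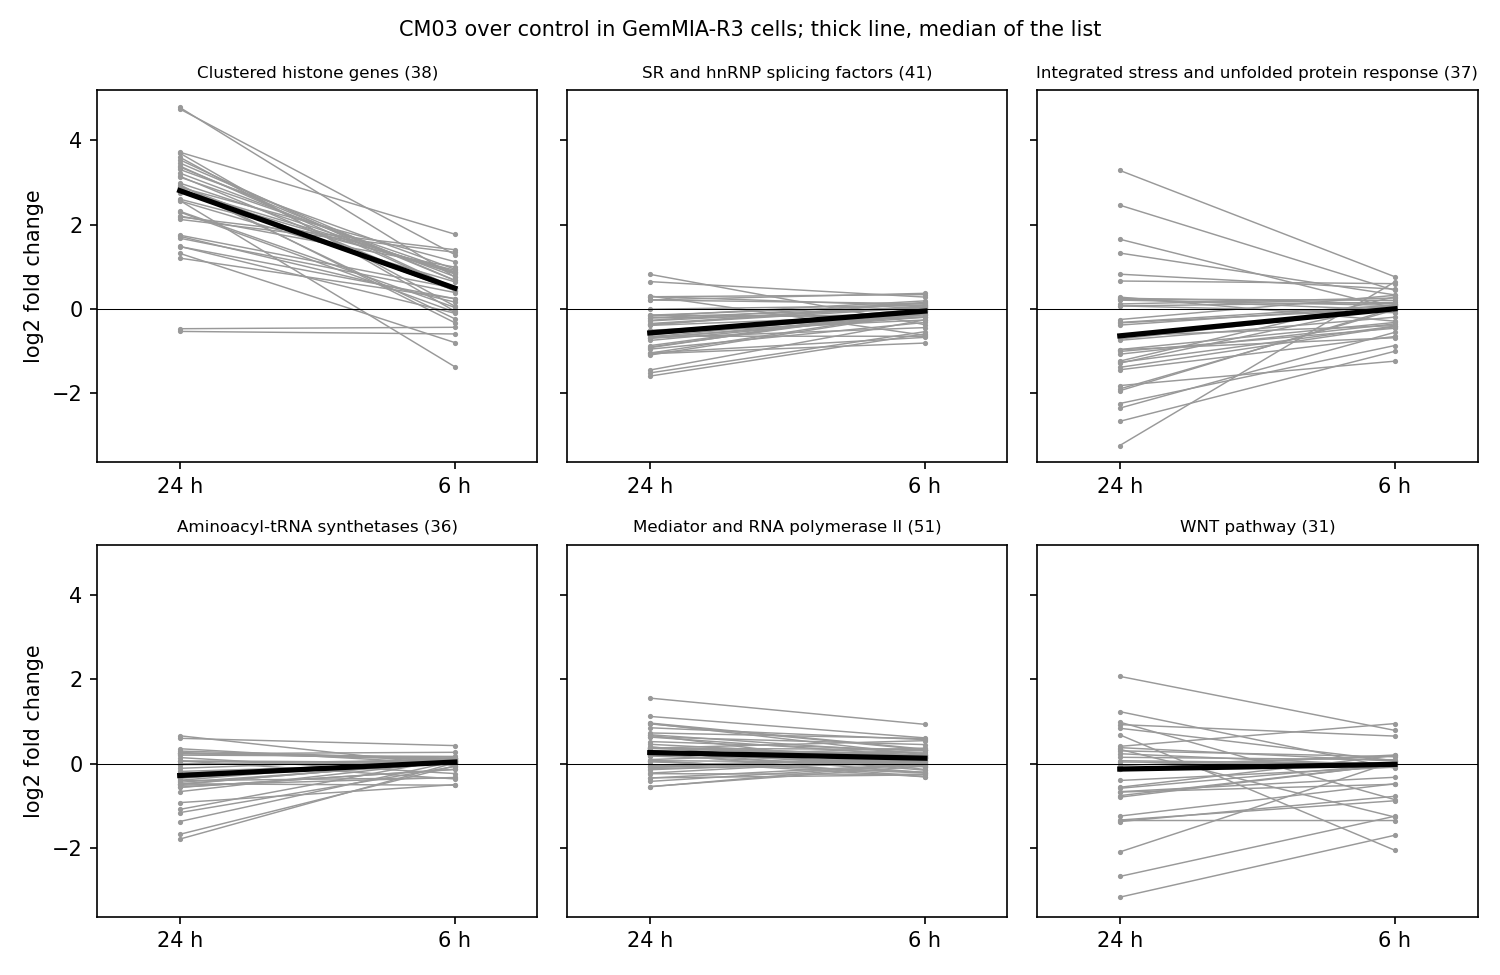
Log2 fold change of CM03-treated over control GemMIA-R3 cells at 24 h (left) and 6 h (right) for each measured member of 6 gene lists (grey lines), with the median of the list as a thick line and the number of genes in brackets. The histone median lies at 2.81 at 24 h and 0.50 at 6 h, and that of the Mediator and RNA polymerase II genes at 0.26 at 24 h and 0.13 at 6 h.

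Few genes were called in opposite directions at the 2 times, and those given here were chosen after their values were seen. CTIF, a factor of cap-dependent translation, stood at 0.72 at 24 h and -1.06 at 6 h (difference 1.78, SE 0.270), and ITGA6, an integrin of epithelial anchoring, at 1.496 at 24 h and -0.95 at 6 h (difference 2.45, SE 0.459). PMEPA1, a TGF-beta target, was at 0.60 at 24 h and -0.51 at 6 h, and KLHL29, an adaptor of ubiquitin ligases, at 1.33 at 24 h and -1.31 at 6 h. KDM8, BIRC3 and NKD1, named above among the Down genes, stood at 0.69, 1.00 and 0.98 at 24 h. ZSCAN31, a zinc finger gene, was the gene that went the other way, at -0.76 at 24 h and 0.67 at 6 h. Each of these 8 differences lay within the adjusted limit of 0.05. The genes were first required to have opposite calls from the same values, so this is no separate support.

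Set against parental cells at 6 h, GemMIA-R3 cells had fewer calls, since 16.3% of 13503 genes were Down and 16.4% Up in the parental table. Of 10459 genes tested for the difference, 1087 (10.4%) had a lower and 955 (9.13%) a higher log2 fold change in GemMIA-R3 cells. With SEs from the t quantile, again with the normal test, these counts were 2515 and 2294. The line and the study cannot be told apart here. WT1-AS, the antisense transcript of WT1, stood at 0.87 in GemMIA-R3 and 8.03 in parental cells, and MMP14, a membrane-bound matrix protease, at 0.74 in GemMIA-R3 and 2.70 in parental cells. Cyclin E2, CCNE2, was at 0.43 in GemMIA-R3 and 1.72 in parental cells, CDK1, the kinase of mitotic entry, at -0.03 in GemMIA-R3 and 0.80 in parental cells, and ARL6IP1, a protein that shapes the endoplasmic reticulum, at 0.32 in GemMIA-R3 and 1.04 in parental cells. TMEM158, a RAS-induced membrane protein, was called in opposite directions, at -0.54 in GemMIA-R3 and 1.00 in parental cells.

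Among the genes with a higher value in GemMIA-R3 cells, the splicing factor SRSF4 stood at -0.67 in GemMIA-R3 and -1.74 in parental cells, NFIC, a nuclear factor, at -0.86 in GemMIA-R3 and -1.87 in parental cells and ATN1, a transcriptional co-repressor, at -0.14 in GemMIA-R3 and -1.12 in parental cells. The developmental factors SOX12 and TFAP2A stood at -0.23 and -0.23 in GemMIA-R3 cells, against -1.51 and -1.11 in parental cells, and the repressor ZBTB7A at -0.06 in GemMIA-R3 and -0.99 in parental cells. All were factors of transcription or splicing that fell in parental cells. By list, 13 of 36 tested SR and hnRNP genes were higher in GemMIA-R3 cells and 2 lower, and 10 of 40 chromatin remodellers were higher and none lower. Immediate early genes went the other way, with 12 of 28 lower and 1 higher, and oxidative phosphorylation genes, with 23 of 73 lower and 3 higher. Of the 849 genes Down in GemMIA-R3 cells with a parental value, 637 were Down, 5 Up and 207 without a call in parental cells. Of these, 845 were tested, with 76 lower and 72 higher in GemMIA-R3 cells. Of the 475 Up genes with a parental value, 388 were Up, 1 Down and 86 without a call in parental cells. Of 474 tested, 85 were lower and 26 higher in GemMIA-R3 cells. The GemMIA-R3 value enters both the call and the difference.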

How the data were processed

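RNA-seq libraries of GemMIA-R3 cells with 400 nM CM03 or PBS were made with unique molecular identifiers, 3 per group and time. Reads were trimmed with Trimmomatic 0.36 and aligned to hg38 with STAR 2.5b, duplicates were marked with JE-Suite, and reads were counted with FeatureCounts and compared with SARTools by the authors. The deposited tables hold the comparison alone: a log2 fold change (log2 of CM03 over control), its FDR (an adjusted p-value) and, in the parental table, a number of putative quadruplexes per gene, another measure by the authors. Values per library were not used here, so the depth per sample is unknown and no model was refitted. All comparison columns printed are the authors' deposited values, on which the calls, list counts and differences rest.

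A p-value was recovered from each FDR by undoing the Benjamini-Hochberg step, and an SE from the fold change and the normal quantile of that p. It has no value for 317 genes. Differences between tables were tested with a normal test, two-sided, adjusted over all shared genes (limit 0.05). Genes under 0.5 in size or with an FDR of 0.1 or more have no call. Of the symbols 12519 were matched, 11781 of them directly in GENCODE release 44 and the others through older names, and 420 were not, and promoter, GC and microRNA values come from the reference annotation and RefSeq (GRCh38.p14). Named genes were the 12 lowest and 12 highest protein-coding genes with an FDR under 0.05, the 10 of smallest FDR per direction, up to 4 called members of a list with the largest change plus members that show how a list is made up, and the 6 of smallest adjusted p in each direction of each difference. Members and gene lists were chosen with earlier results of these data known. Alternatives changed the limits, the centring, the genes kept and the recovered p. Some genes and lists are not reported here. The scripts were tested on simulated data. Python 3.11.15, pandas 2.3.3, numpy 2.4.6, scipy 1.17.1 and matplotlib 3.10.9 were used.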

Additional observations from a re-analysis of the deposited data

Results flagged for a closer look

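These genes had the smallest adjusted p in each direction of the tests of a difference between 2 responses. For the response at 24 h minus that at 6 h in GemMIA-R3 cells, the lower differences on the log2 scale were BOP1 -2.20, SLC7A5 -1.80, RBM14 -1.69, ACTG1 -1.34, EPRS -1.62, KRT18 -1.84. The higher ones were GLDC 2.35, LTBP2 2.06, HDAC9 1.75, PRND 3.42, LPXN 1.61, AXL 1.23. For the response of GemMIA-R3 minus parental cells at 6 h, the lower differences were WT1-AS -7.17, MMP14 -1.96, CCNE2 -1.28, TMEM158 -1.54, CDK1 -0.83, ARL6IP1 -0.72. The higher ones were ATN1 0.98, SRSF4 1.06, SOX12 1.28, TFAP2A 0.88, NFIC 1.01, ZBTB7A 0.93. The line and the study cannot be told apart in the second set, and plating density differed between the times in the first. No explanation was tested.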

How the results depend on the processing

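With no limit on the fold change and an FDR under 0.1, 1952 genes lay below and 1813 above 0 at 6 h, and with a change of 1 or more and an FDR under 0.05, 248 were Down and 212 Up. The counts stayed within 1.5 times of 939 Down and 647 Up with an FDR under 0.05, after centring, for protein-coding genes alone and without genes whose SE was over 1. Taking the SE from a t quantile with 4 degrees of freedom gave 3215 lower and 2775 higher genes at 24 h than at 6 h. The same setting gave 2515 lower and 2294 higher genes in GemMIA-R3 than in parental cells. Here each SE was smaller while the test itself stayed normal, so more genes pass by construction. The setting therefore cannot show how firm the counts are. Recovering the p at the lower end and centring each table left the counts of both differences within 1.5 times. Of 253 genes checked at 6 h, 21 lost their call with an FDR under 0.05 and 124 with the stricter limits, settings that leave each fold change as it was. Some of the 253, such as ACTG1 and CDK1, had no call to lose, and some genes named above, such as MAPK11 and NEAT1, were not checked. No paired analysis was possible because the tables hold no values per library, which also kept leaving out a replicate, another normalization and a filter on low counts from being run. Depth is unknown, so the wide SEs of the highest genes cannot be set against counts.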
